A study of Mus musculus with 6 samples.

Results

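Noncanonical microRNAs are small RNAs that reach the Argonaute proteins without the full series of cuts by Drosha and Dicer. They were selected by name as every row of the count table for miR-320, miR-484, miR-877, miR-1983, miR-1839 or miR-664 of the mouse, with either arm suffix or none. The rule found 10 mature microRNAs from 6 hairpins among the 1028 in the table, and it used no measured value. The libraries came from a cultured mouse epicardial cell line, entered in the labels as MCEC, which models the outer layer of the heart. KO cells (3 libraries) received a lentivirus with a guide RNA against Hdac3 for CRISPR/Cas9 knockout, and EV cells (3 libraries) received an empty-vector lentivirus. Hdac3 encodes a histone deacetylase of repressor complexes. The sources used here do not state whether the KO cells were 1 clone or a mixed population. The Hdac3 mRNA cannot be seen in microRNA counts, so the knockout was not checked.

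In the canonical pathway Drosha cuts a hairpin out of a long primary transcript and Dicer then removes its loop. The hairpins of miR-320 and miR-484 bypass Drosha, because transcription itself starts at the hairpin and leaves a methylguanosine cap on its end. miR-877 is a mirtron, a short intron that splicing and debranching turn into a hairpin. miR-1983 comes from a transcript that can also fold into an isoleucine tRNA, while miR-1839 and miR-664 are cut from small nuclear guide RNAs of the H/ACA class, which direct pseudouridine modification of other RNAs. In the heart, miR-320 is known as a repressor of a small heat-shock protein during ischaemia, and miR-484 as a repressor of the mitochondrial fission factor Fis1.

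The mature sequences, with the seed (bases 2 to 8, which pair with target mRNAs) in capitals, are shown to compare their seeds. RefSeq sequences on build GRCm38.p6 matched 7 of the 10 members, and miR-320-3p, miR-320-5p and miR-1839-3p had no entry.
miR-484: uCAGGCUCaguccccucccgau
miR-1983: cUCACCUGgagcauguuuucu
miR-877-5p: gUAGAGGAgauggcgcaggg
miR-877-3p: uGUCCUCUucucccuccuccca
miR-1839-5p: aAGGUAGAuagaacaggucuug
miR-664-5p: cUGGCUGGggaaaaugacugg
miR-664-3p: uAUUCAUUuacuccccagccua
The 7 seeds were all different, and no other tested microRNA with an entry carried any of them. miR-877-3p was 90.9% pyrimidine and miR-877-5p 20.0%, and a run of pyrimidines is typical of the end of an intron.

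The loci show where the noncanonical route begins. Mir877 (chr17:35960730-35960814, minus strand) coincided base for base with an 85-base intron of Abcf1, a gene for a translation factor of the ABC family, in the GENCODE annotation. The RefSeq hairpin is printed with its first and last 2 bases, the splice-site letters, in capitals.
Mir877 hairpin: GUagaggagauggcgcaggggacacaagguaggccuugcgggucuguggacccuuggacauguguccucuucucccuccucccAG
Mir1983 (chr13:21896918-21897049, minus strand) contained the isoleucine tRNA gene n-TItat14 at 21896938 to 21897031. Of the 21 bases of mature miR-1983, shown in capitals in its RefSeq hairpin, 13 lay within that tRNA gene and 8 ran past its end.
Mir1983 hairpin: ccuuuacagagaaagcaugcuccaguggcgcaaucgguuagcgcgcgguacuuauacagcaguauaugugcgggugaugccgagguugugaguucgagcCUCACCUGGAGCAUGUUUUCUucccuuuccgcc
Both arms of Mir664 (chr1:185242975-185243043, plus strand) lay entirely within the H/ACA RNA gene Snora36b, in an intron of Rab3gap2. miR-1839-5p likewise lay within an annotated small Cajal body RNA, in the lincRNA 2900076A07Rik (Mir1839 at chr7:81529916-81529988, plus strand). Mir320 (chr14:70443510-70443591, plus strand) began 63 bases from the start of Polr3d, a subunit gene of RNA polymerase III transcribed away from it. Mir484 (chr16:14159626-14159692, plus strand) overlapped the edge of an exon of Marf1 on the opposite strand.

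The libraries held 11824881 to 13412774 counts, and the members together took 0.0377% to 0.0396% of them in KO and 0.0397% to 0.0507% in EV. Levels are in CPM, counts per 1000000 of an effective library size, which is the library's total multiplied by its TMM scaling factor, and 1 read corresponded to 0.0637 to 0.0892 CPM. The 5 mesenchymal markers, led by miR-21a-5p, summed to 761489 to 833933 CPM in KO and 589456 to 837452 CPM in EV. The 4 leukocyte markers summed to at most 0.558 CPM in KO and 1.55 CPM in EV. The 3 epithelial markers, led by miR-200b-3p, summed to 17.4 to 19.1 CPM in KO and 29.2 to 34.1 CPM in EV, with miR-141-3p at 0 in the 3 KO libraries. The 2 endothelial markers also summed lower in KO (34.7 to 35.4 CPM, against 36.6 to 42.1 CPM in EV). That came from miR-126a-3p, while miR-126a-5p overlapped, at 2.87 to 3.57 CPM in KO and 2.55 to 3.10 CPM in EV. The 2 muscle markers present summed higher (1.83 to 2.35 CPM, against 0.828 to 1.34 CPM in EV). The liver marker miR-122-5p (5 to 40 reads) was at 0.638 to 3.24 CPM in KO and 0.408 to 0.637 CPM in EV. The epithelial, endothelial, muscle and liver values did not overlap between KO and EV, beside 29.1% of all tested microRNAs that did not. The 3 red blood cell markers present summed to 5.92 to 77.8 CPM in KO and 8.73 to 67.99 CPM in EV, and miR-144-3p among them was at 0 in 5 of 6 libraries. KO 2 and EV 3 stood apart by miR-451a, at 62.7 and 54.7 CPM, against at most 2.45 CPM elsewhere, and results that turn on them are also given without them. The 3 neural markers were highest in the same libraries, at 58.9 CPM in KO 2 and 54.6 CPM in EV 3. miR-9-5p, which led them, was also at 32.6 CPM in EV 2, against 11.3 to 19.1 CPM in EV 1, KO 1 and KO 3.

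Among these microRNAs miR-1983 was lower in KO cells than in EV cells, and the others were not called. Of the 9 tested members 1 was called lower and 0 higher in KO (edgeR quasi-likelihood test, Benjamini-Hochberg adjusted p under 0.05 over all 460 tested microRNAs), where 7.61% of all tested microRNAs were called, 2.61% lower and 5.00% higher. DESeq2 and limma-voom each also called 1, against 10.4% and 8.26% of all tested. DESeq2 gave no adjusted p for the members under 10 CPM, and any microRNA without one counts as not called in its 10.4%. At the edgeR test 2 members had an unadjusted p under 0.05, against 23.0% of all tested. The KO and EV values did not overlap for 3 of the 9, against 29.1% of all tested microRNAs. The median log2 change was -0.09 over the 9 and -0.01 over all 460, with 4 members above 0 and 5 below. In bulk libraries fewer cells with a microRNA and less of it per cell cannot be told apart.

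**Figure D1:**
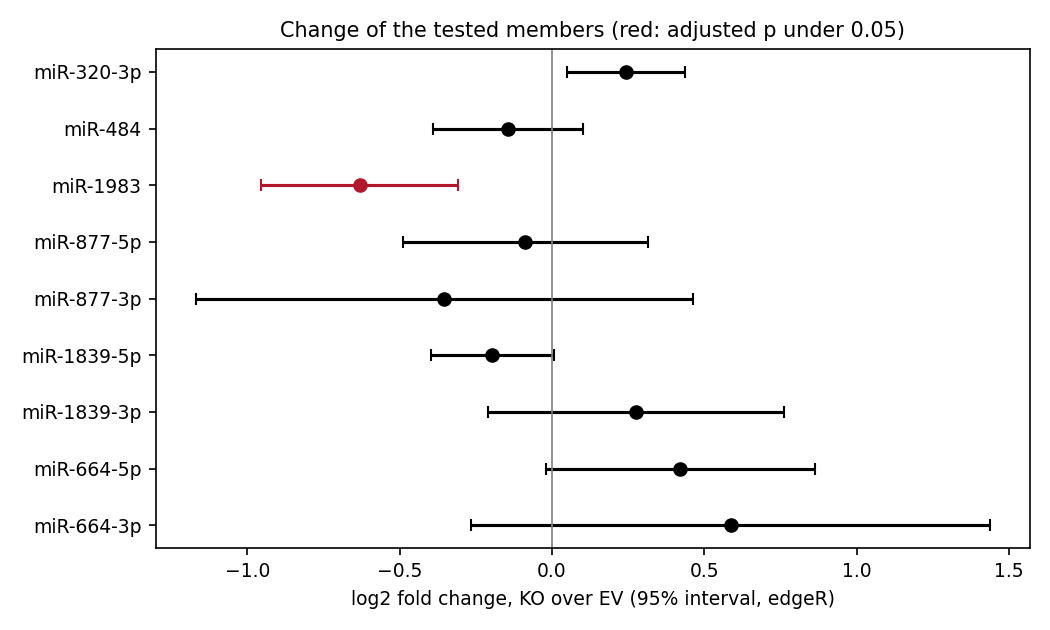
Log2 fold change of KO over EV (horizontal axis) for the 9 tested members, with 95% intervals from edgeR based on 3 libraries per group. miR-1983, in red, is the member called, at -0.63, and the interval of miR-320-3p (0.05 to 0.44) also lies above 0 without a call after adjustment.

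miR-1983, the tRNA-like member, fell in KO. It had 138, 139 and 112 reads in KO 1, KO 2 and KO 3, against 249, 191 and 194 in EV 1, EV 2 and EV 3. On the scaled level these were 11.2, 11.1 and 9.17 CPM in KO and 15.9, 15.6 and 17.3 CPM in EV. Every KO library lay below every EV library, and the group means were 10.5 ± 1.14 CPM in KO and 16.3 ± 0.926 CPM in EV (SD, n = 3 each). The log2 change was -0.63 (SE 0.14, 95% interval -0.95 to -0.31, edgeR adjusted p = 0.0285), or 0.645-fold. In the authors' deposited table the log2 change is -0.63 with an adjusted p of 2.81e-05. Counting error alone gives a coefficient of variation of 7.66% at this depth, close to the 10.8% seen among KO and the 5.69% among EV libraries.

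The size of that fall kept to a narrow range while its call did not. The log2 change of miR-1983 ran from -0.69 to -0.55 as each library was left out in turn, but the call was kept only without EV 3 (edgeR adjusted p = 0.0489). The adjusted p was 0.0582 without EV 1, 0.0612 without EV 2, 0.0824 without KO 1, 0.0701 without KO 2 and 0.117 without KO 3. Without both KO 2 and EV 3 the change was -0.62 (SE 0.19, edgeR adjusted p = 0.0204), so it was as large without the libraries rich in miR-451a. The epithelial sum moved with miR-1983 (17.4 to 19.1 CPM in KO, 29.2 to 34.1 CPM in EV), and the endothelial sum was also lower. Neither endothelial marker was called, with miR-126a-3p at -0.17 (edgeR adjusted p = 0.441) and miR-126a-5p at 0.17 (edgeR adjusted p = 0.598). The muscle and liver values given above went the other way. The part of these cell types in the fall of miR-1983 was not tested. With library size alone as the scaling the miR-1983 change was -0.78 (SE 0.18, edgeR adjusted p = 0.0639).

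miR-320-3p, the guide strand of the capped miR-320 hairpin, was not called, although its groups did not overlap. It had 125.8, 118 and 125 CPM in KO 1, KO 2 and KO 3, against 103, 97.9 and 112 CPM in EV 1, EV 2 and EV 3. Both groups were tight, at 123 ± 4.25 CPM in KO and 104 ± 7.19 CPM in EV (SD, n = 3 each). The log2 change was 0.24 (SE 0.09, 95% interval 0.05 to 0.44, edgeR adjusted p = 0.132). The authors' deposited table does list miR-320-3p, at a log2 change of 0.22 and an adjusted p of 0.0131, while DESeq2 run here gave 0.24 with an adjusted p of 0.0783. Without EV 3 it was called at 0.30 (SE 0.08, edgeR adjusted p = 0.0462), and without both KO 2 and EV 3 at 0.33 (SE 0.12, edgeR adjusted p = 0.0436). It was 0.09 with library size alone (edgeR adjusted p = 0.728), or 0.25 relative to the median of all tested microRNAs, and 0.17 without EV 2 (edgeR adjusted p = 0.350).

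miR-320-5p, the other strand of that hairpin, was almost absent. It had 1, 0 and 4 reads in KO 1, KO 2 and KO 3 and 0 in each EV library, and it did not pass the filter on low counts. The 5p arm thus gave 5 of the hairpin's reads in KO, beside 4567 from the 3p arm. In EV it gave 0 beside 4064, which over the 3 EV libraries pooled allows a share of up to 0.0738% (3 counts, counting error only). In single EV libraries the exact 95% upper limit was 0.229% to 0.307%.

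miR-484, the other capped hairpin product, was not called. It had 81.2, 94.4 and 92.9 CPM in KO 1, KO 2 and KO 3, against 108.7, 99.7 and 88.4 CPM in EV 1, EV 2 and EV 3. The groups overlapped through EV 3, the lowest EV library. The means were 89.5 ± 7.21 CPM in KO and 98.9 ± 10.1 CPM in EV (SD, n = 3 each). The log2 change was -0.14 (95% interval -0.39 to 0.10, edgeR adjusted p = 0.464). It was -0.068 without EV 1, -0.078 without KO 1, -0.22 without EV 3 and -0.25 without both KO 2 and EV 3. With library size alone it was -0.31 (-0.15 relative to the median of all tested), and none of these was called.

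**Figure D2:**
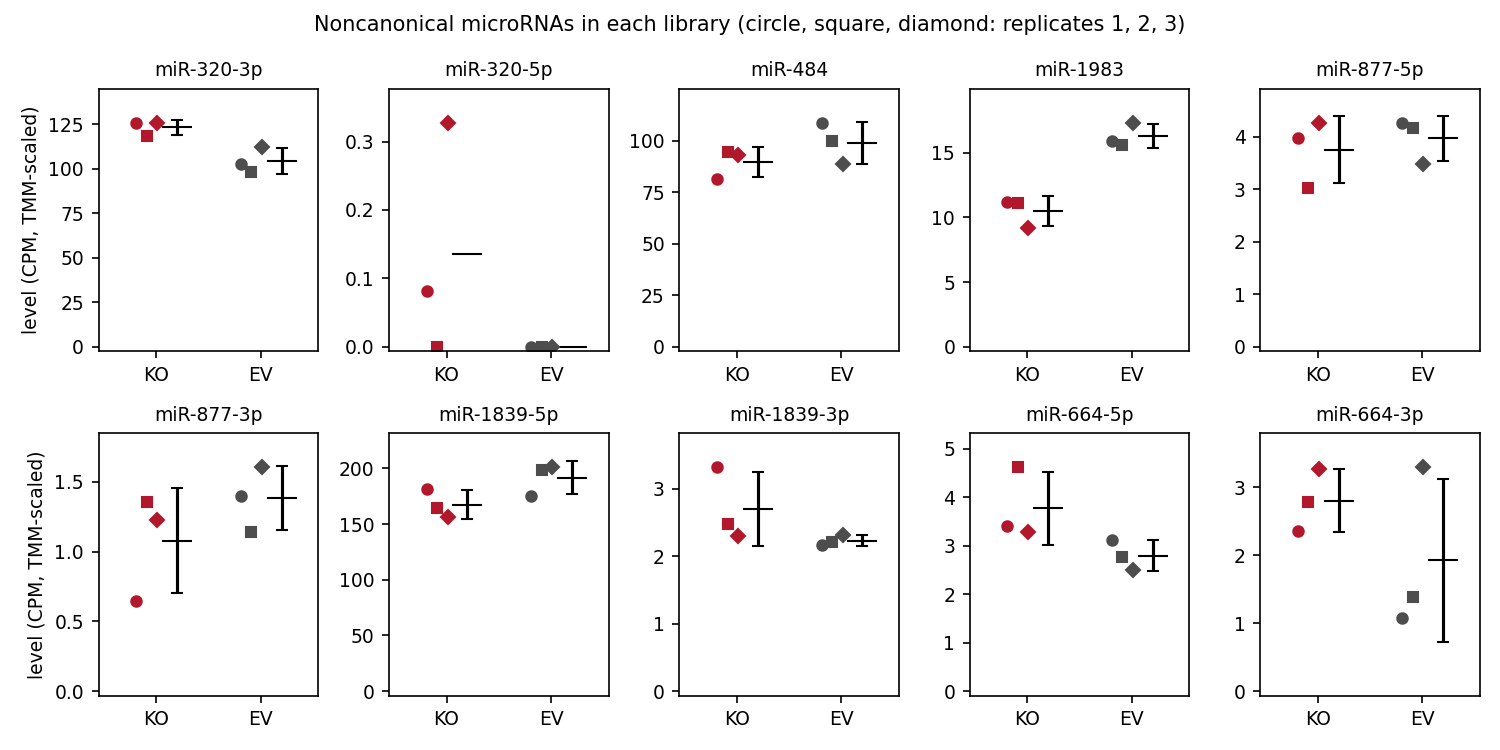
Level of each of the 10 members in CPM (vertical axes, starting near 0) in the 3 KO (red) and 3 EV (grey) libraries, with the group mean and SD in black (mean only for miR-320-5p). The 3 KO points of miR-1983 sit between 9.17 and 11.2 CPM, under the 3 EV points, whereas the EV 3 point of miR-664-3p, at 3.30 CPM, lies just above the highest KO point, at 3.28 CPM.

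The mirtron miR-877 was found from both arms at a few CPM and neither arm was called. miR-877-5p, the arm that begins at the splice donor, had 3.97, 3.03 and 4.26 CPM in KO 1, KO 2 and KO 3 and 4.27, 4.16 and 3.48 CPM in EV 1, EV 2 and EV 3. Its log2 change was -0.09 (95% interval -0.49 to 0.31, edgeR adjusted p = 0.803), and it stood at 0.05 without KO 2, -0.025 without EV 1, -0.19 without KO 3 and -0.17 without EV 3. miR-877-3p, the arm at the acceptor end, had 8, 17 and 15 reads in KO and 22, 14 and 18 in EV. At that depth counting error alone amounts to 25.3%, and the log2 change of -0.35 had a 95% interval of -1.17 to 0.46 (edgeR adjusted p = 0.587). It was -0.093 without KO 1 and -0.55 without KO 2.

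The microRNAs cut from H/ACA RNAs were represented by the most abundant member and by a hairpin near the detection limit. miR-1839-5p had 182, 164 and 156 CPM in KO 1, KO 2 and KO 3, against 175, 199 and 201 CPM in EV 1, EV 2 and EV 3. The groups overlapped because KO 1 exceeded EV 1. The means were 167 ± 12.9 CPM in KO and 192 ± 14.7 CPM in EV (SD, n = 3 each), and the log2 change of -0.20 (95% interval -0.40 to 0.01) was not called (edgeR adjusted p = 0.232). miR-1839-3p, its partner, had 41, 31 and 28 reads in KO and 34, 27 and 26 in EV, with a log2 change of 0.28 (95% interval -0.21 to 0.76, edgeR adjusted p = 0.477). Without KO 1 that change was 0.099.

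Both arms of miR-664 had higher means in KO, and neither was called. miR-664-5p had 3.41, 4.63 and 3.28 CPM in KO 1, KO 2 and KO 3, all above the 3.12, 2.78 and 2.50 CPM of EV 1, EV 2 and EV 3. Its log2 change was 0.42 (SE 0.20, 95% interval -0.02 to 0.86, edgeR adjusted p = 0.239), and 0.25 without KO 2. Without both KO 2 and EV 3 it was 0.18 (edgeR adjusted p = 0.747). miR-664-3p had 29, 35 and 40 reads in KO against 17, 17 and 37 in EV, so EV 3 alone of the EV libraries reached the level of the KO libraries, at 3.30 CPM against 2.35 to 3.28 CPM in KO. The log2 change was 0.59 (SE 0.38, edgeR adjusted p = 0.380) with EV 3. It was 0.27 without EV 1 (edgeR adjusted p = 0.712) and 0.39 without EV 2 (edgeR adjusted p = 0.655), but 1.19 without EV 3 (SE 0.28, edgeR adjusted p = 0.0258) and 1.20 without both KO 2 and EV 3 (SE 0.37, edgeR adjusted p = 0.0219). EV 3 was also 1 of the libraries rich in miR-451a, whose part in the miR-664-3p value was not tested, while KO 2, the other one, had 2.79 CPM, between KO 1 and KO 3.

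Ordered by mean level over the 6 libraries, miR-1839-5p (179 CPM) led miR-320-3p (114 CPM), miR-484 (94.2 CPM) and miR-1983 (13.4 CPM). Then came miR-877-5p (3.86 CPM), miR-664-5p (3.28 CPM), miR-1839-3p (2.46 CPM), miR-664-3p (2.37 CPM), miR-877-3p (1.23 CPM) and miR-320-5p (0.0681 CPM). The matched sequences are 20 to 22 bases long, so length hardly enters, but adaptor ligation favours some small RNAs over others and the order is one of read levels only. The library ranges overlapped between miR-320-3p and miR-484, and between each neighbouring pair from miR-877-5p down to miR-877-3p. Compared within each library, miR-664-5p exceeded miR-1839-3p in all 6, narrowly in KO 1 (42 against 41 reads). The other pairs changed order between libraries, so their ranks are not separated. miR-1839-5p ranked 94 among the 1028 microRNAs and miR-1983 ranked 227.

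**Figure D3:**
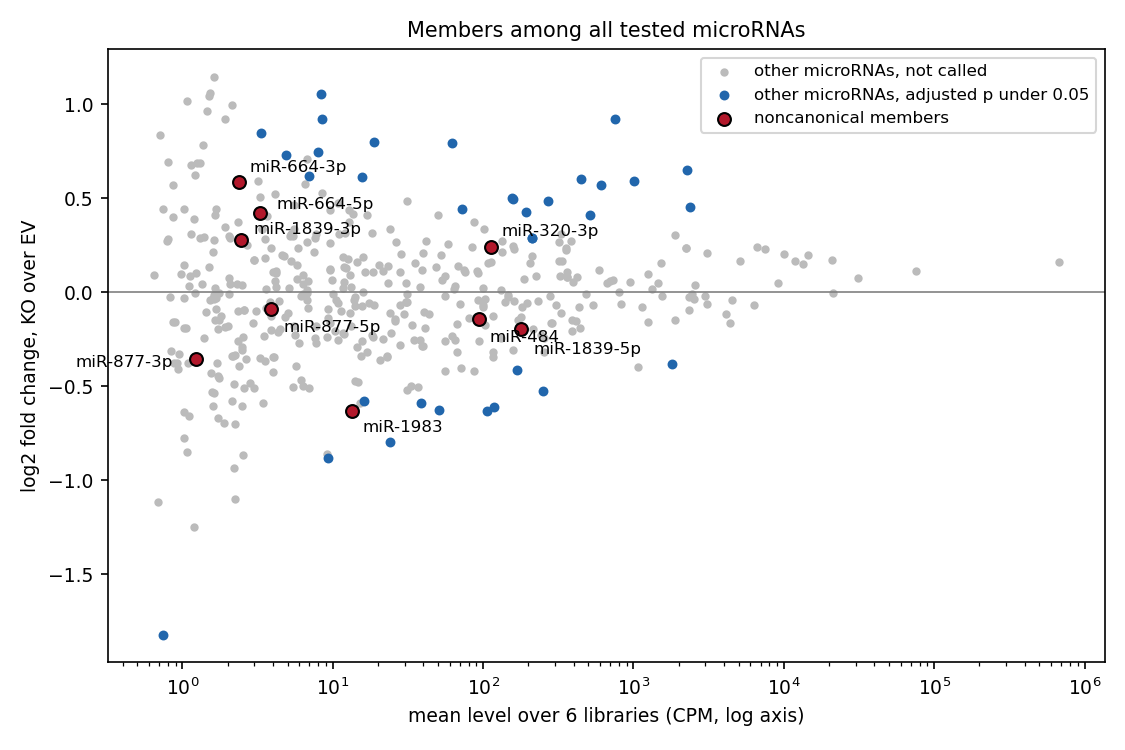
Log2 fold change of KO over EV (vertical axis) against mean CPM on a log axis for the 460 tested microRNAs, with the 9 tested members in red. The members spread across the low and middle levels, and miR-1983, at 13.4 CPM and -0.63, lies beside other microRNAs called lower.

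The share of reads from the 5p arm ran from near 0 for miR-320 to nearly all for miR-1839, in KO and EV alike. It was 98.4% ± 0.193 of miR-1839 reads in KO and 98.8% ± 0.0650 in EV (SD, n = 3 each). For miR-877 it was 77.6% ± 8.44 in KO and 74.1% ± 5.13 in EV, and for miR-664 57.2% ± 6.42 in KO and 61.3% ± 16.3 in EV (SD, n = 3 each). Among single libraries the miR-664 5p share was 59.2%, 62.4% and 50.0% in KO 1, KO 2 and KO 3, and 74.2%, 66.7% and 43.1% in EV 1, EV 2 and EV 3. The exact (Clopper-Pearson) 95% intervals were wide, for example 62.0% to 84.2% in EV 1 and 30.8% to 55.96% in EV 3, which do not overlap although both are EV libraries. Such intervals cover counting error only, since PCR copies were counted as reads.

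Whether the arms of a hairpin changed by different amounts was tested with limma's diffSplice over the 133 hairpins with both arms tested. None of the 3 member hairpins in that test was called, among 0% of all 133 at an adjusted p under 0.05 and 4.51% at an unadjusted p under 0.05, which also included none of the 3. The difference between the changes, 5p minus 3p, was -0.45 (SE 0.27, diffSplice adjusted p = 0.973) for miR-1839, -0.36 (SE 0.42) for miR-664 and 0.29 (SE 0.41) for miR-877 on the log2 scale. The 3p share of miR-1839, picked out after its values were seen, was 1.80%, 1.48% and 1.45% in KO 1, KO 2 and KO 3, against 1.22%, 1.10% and 1.14% in EV 1, EV 2 and EV 3. Those shares rest on 28 to 41 reads of the 3p arm in KO and 26 to 34 in EV. Even for KO 1 and EV 2 the exact 95% intervals of the 5p share overlapped (97.6% to 98.7% and 98.4% to 99.3%). How many other hairpins separate in this way was not computed.

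**Figure D4:**
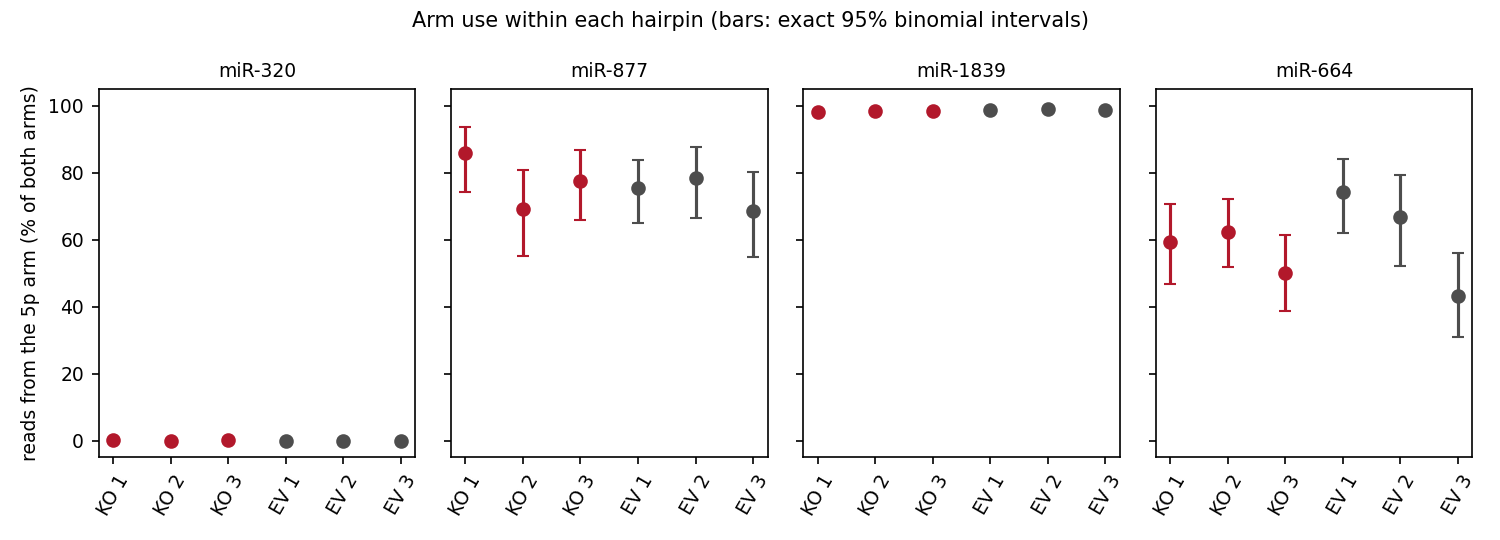
Percent of a hairpin's reads that came from the 5p arm (vertical axis) in each KO (red) and EV (grey) library for the 4 hairpins with both arms in the table, with exact 95% binomial intervals. miR-320 sits near 0%, miR-1839 above 98%, miR-877 between 68.4% and 86.0%, and miR-664 between 43.1% and 74.2%.

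Ratios of read counts between members within a library do not depend on how libraries are scaled. All 6 ratios among the 4 members with a mean of at least 10 CPM were computed, a comparison added after the values were seen. miR-1983 per miR-320-3p read was 0.0889, 0.0937 and 0.0731 in KO 1, KO 2 and KO 3, against 0.155, 0.159 and 0.155 in EV 1, EV 2 and EV 3. miR-1983 was thus 0.543-fold as frequent relative to miR-320-3p in KO, 0.710-fold relative to miR-484, and miR-1839-5p was 1.36-fold as frequent relative to miR-1983. miR-1839-5p per miR-320-3p read was 1.44, 1.39 and 1.25 in KO against 1.70, 2.03 and 1.80 in EV.

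For each of these 4 ratios KO and EV did not overlap, with a two-sided exact permutation p = 0.100, the smallest that 3 against 3 libraries allow, and 0.150 adjusted over the 6. All but the ratio of miR-1839-5p to miR-320-3p include miR-1983, the member already called, so they are not separate results. The ratio of miR-1983 to miR-320-3p could not have overlapped, since the CPM of the first lay wholly below EV and of the second wholly above. miR-320-3p, already without overlap, also enters the ratio of miR-1839-5p to miR-320-3p. The share of such ratios among other microRNAs was not computed, and 29.1% of single tested microRNAs did not overlap. The capped pair was less clear. miR-320-3p per miR-484 read was 1.55, 1.25 and 1.35 in KO 1, KO 2 and KO 3, against 0.944, 0.982 and 1.27 in EV 1, EV 2 and EV 3, and overlapped through KO 2 and EV 3 (exact permutation p = 0.200). Without those libraries the KO ratios (1.55 and 1.35) lay above the EV ratios (0.944 and 0.982), too few to test. miR-1839-5p relative to miR-484 was 0.964-fold, with overlapping groups (exact permutation p = 0.900).

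**Figure D5:**
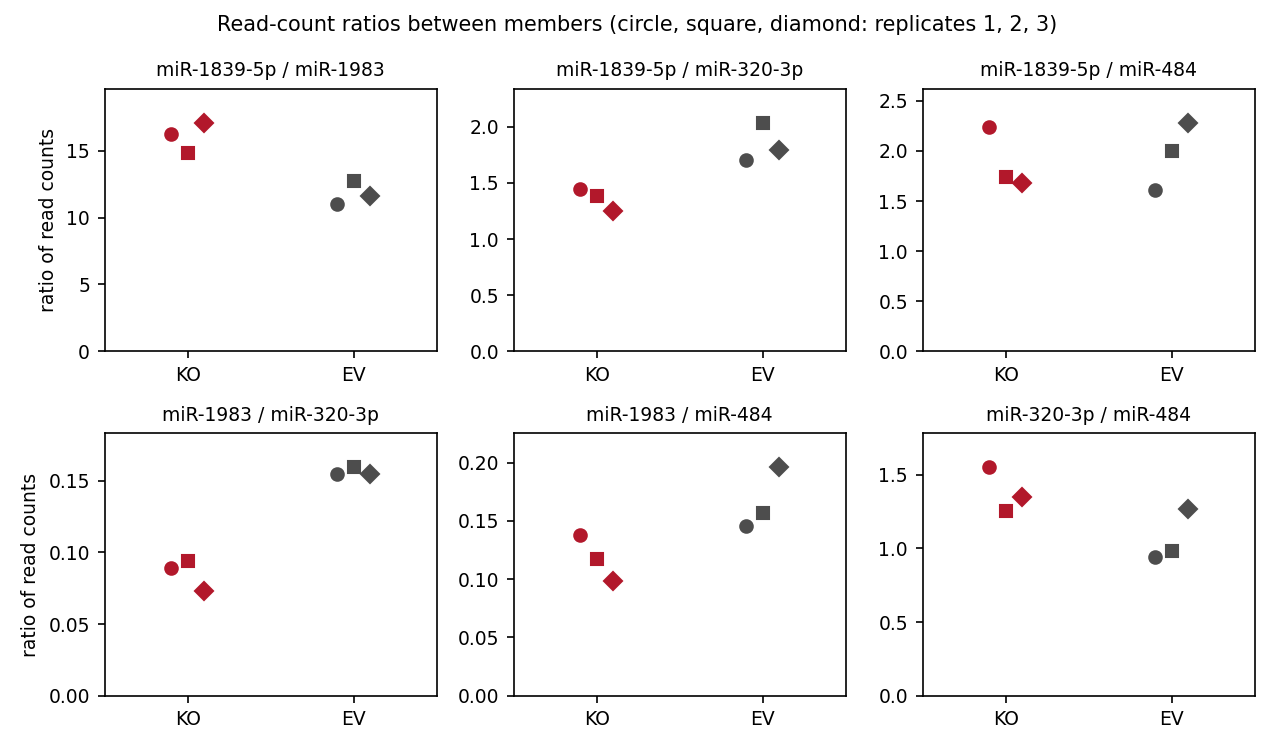
Ratio of read counts between pairs of members (vertical axes from 0) in each KO (red) and EV (grey) library. The ratio of miR-1983 to miR-320-3p lies between 0.0731 and 0.0937 in KO and between 0.155 and 0.159 in EV.

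The tested microRNAs most like each of these 4 members were found from the root-mean-square difference of log2 CPM deviations over the 6 libraries. These deviations include the difference between KO and EV. A member called lower is therefore bound to lie near others that fell by a like amount, and closeness is no separate result. miR-1983 was closest to miR-455-5p (0.102) and miR-200b-3p (0.122), where the median over the other 459 microRNAs was 0.392. miR-200b-3p, the leading epithelial marker, had 18.2, 18.1 and 16.6 CPM in KO 1, KO 2 and KO 3, against 28.3, 32.7 and 31.1 CPM in EV 1, EV 2 and EV 3. Its log2 change was -0.80 (edgeR adjusted p = 0.00777). The nearer match, miR-455-5p, is not on the epithelial list and had a log2 change of -0.63 (edgeR adjusted p = 0.00777). miR-320-3p was closest to miR-16-1-3p (0.0348) and miR-467a-5p (0.0639), with a median of 0.254. The mean level (211 CPM) and log2 change (0.29) of miR-467a-5p were also those of miR-467b-5p. miR-484 was closest to miR-92a-3p (0.0345) and miR-339-5p (0.0501), with a median of 0.253. miR-1839-5p was closest to miR-136-3p (0.0503) and miR-3071-5p (0.0506), with a median of 0.253. These had nearly the same mean level (286 and 283 CPM) and log2 change (-0.166 and -0.165), so they are hardly separate matches.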

How the data were processed

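Per the labels' protocols, Trizol RNA was made into small-RNA libraries by adaptor ligation, PCR and gel size selection, with no molecular identifiers mentioned. The submitters' processing notes name Bowtie, mm10 and DESeq 1.8.3. Nothing used here states how reads matching several loci were counted. The authors deposited whole-number read counts for 1028 mature microRNAs. The deposited TPM values equal counts scaled to a total of 1000000 (within 3.49e-10) and were not tested. The authors' deposited table of 78 microRNAs gives a mean normalized count (signal) per group, log2 fold change, p-value and adjusted p-value.

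KO over EV was fitted on the whole count table with edgeR 4.0.16 in R 4.3.3 (TMM, filterByExpr with minimum count 10 and total 15, quasi-likelihood F test, two-sided, Benjamini-Hochberg, 0.05), which left 460 microRNAs. Standard errors come from the F statistic. Arm differences used limma 3.58.1. The scripts were tested on simulated data. The rule names every member and, by likeness, the 2 nearest microRNAs of each with at least 10 CPM. Alternatives were other scalings, DESeq2 1.42.0, limma-voom, other filters, a replicate block and left-out libraries. Members and lists were chosen with earlier results of these data known. No label ties the replicates to separate cultures, and the p-values therefore reflect variation among these libraries, which may be technical. No replicates agreed within counting noise (lowest chi-square 9040 on 459 degrees of freedom).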

Additional observations from a re-analysis of the deposited data

How the results depend on the processing

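The direction of each tested member was kept under every alternative run, except that miR-877-5p ran from -0.19 to 0.052 as single libraries were left out, above 0 only without KO 2. Of 15 alternatives miR-1983 was called in 9. The count of called members, 1 of 9 as reported, was 0 of 9 with library size alone. It was 0 to 3 of 9 as single libraries were left out, with 3 only without EV 3. Without KO 2 and EV 3 together, which leaves fewer libraries in each group, it was 3 of 9. The count over all microRNAs, 35 of 460 as reported, was 5 of 460 with library size alone and 56 of 1028 without the filter. As single libraries were left out it ran from 15 of 475 (without KO 2) to 59 of 481 (without EV 3). Without KO 2 and EV 3 together it was 88 of 470, so the members' count rose along with the count over all microRNAs. The cause of these shifts was not tested. The split of calls, 23 higher and 12 lower as reported, was 1 and 4 with library size alone and 18 and 25 when miR-21a-5p was left out of the library sizes. The median over all tested microRNAs, -0.01 as reported, was -0.16 and -0.11 under those scalings, and relative to that median miR-1983 stayed at -0.62 in each, while miR-320-3p was at 0.25, 0.25 and 0.26. With the replicate number as a block, 1 member (miR-1983, edgeR adjusted p = 0.0423) and 34 microRNAs in all were called, and 0 member hairpins had a called arm difference. Deviations from the group mean correlated at 0.30, -0.04 and -0.22 between same-numbered KO and EV libraries. With 3 libraries per group and no other-numbered pairs compared, these values cannot settle whether the numbers pair the libraries. The 10 CPM filter left 4 members and no member hairpin with both arms, so that arm test gave no value there. DESeq2 gave no adjusted p for the 5 members under 10 CPM. Counting error for these 5 is 14.2% to 25.3% per library, and for miR-664-3p the spread among EV libraries was larger, at 62.5%.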

Other observations

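Other noncanonical microRNAs were mostly near the detection limit. They comprised miR-451a, which is cut by Argonaute2 in place of Dicer, and the mirtrons miR-702 and miR-3102. The table held 7 of their mature forms, of which 2 were tested and 0 called by edgeR, with 0 at an unadjusted p under 0.05 and 0 called by DESeq2 or limma-voom. By edgeR 7.61% of all tested were called and 23.0% had an unadjusted p under 0.05, so 0 of 2 says little. The miR-451a log2 change of 0.14 had an SE of 1.64. For miR-3102-3p, at a mean of 2.38 CPM, DESeq2 may have given no adjusted p, as for the members under 10 CPM. miR-3102-3p had 21, 28 and 27 reads in KO 1, KO 2 and KO 3, against 37, 40 and 28 in EV 1, EV 2 and EV 3. The log2 change was -0.39 (edgeR adjusted p = 0.334, SE 0.23). Its KO values in CPM lay below its EV values, with 2.23 CPM the highest in KO and 2.36 CPM the lowest in EV. miR-451a had 3, 786 and 7 reads in KO 1, KO 2 and KO 3, against 14, 30 and 613 in EV 1, EV 2 and EV 3, so a single library of each group held nearly all of it. miR-702-5p had 0 reads in every KO library and 3, 2 and 1 in EV 1, EV 2 and EV 3, and miR-702-3p had 2 reads in KO 1 and 1 in EV 2.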
